A study of Mus musculus with 27 samples.

Results

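The genes described here encode the proteins of the cytosolic ribosome in the left ventricle of the mouse. They were chosen by symbol: Rpl or Rps followed by a number and an optional letter, together with Rplp0, Rplp1, Rplp2 and Rpsa. Of the 8987 genes in the table of messenger RNA (mRNA), 76 met this rule, 45 of the large subunit (Rpl) and 31 of the small subunit (Rps). A further 13 symbols with the same start were left out: 6 genes of S6 kinases, 3 pseudogenes, and Rpl22l1, Rpl36al, Rpl7l1 and Rps19bp1. All 76 genes passed a filter at a mean of 1 RPKM (reads per kilobase of transcript, scaled to the size of the library), a filter that removed 0 genes from the whole table. The table holds only genes that reach 3 RPKM in at least 1 library, so a ribosomal protein gene below that level everywhere, and any gene not matched here, such as Rplp2 and Rps19, was not analysed here.

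The ribosome joins a small subunit, which reads the mRNA, to a large subunit, which forms the peptide bonds and holds the tunnel through which the new protein leaves. Ribosomal protein mRNAs commonly begin with a run of pyrimidines, the TOP motif, through which signalling from phosphoinositide 3-kinase and mTOR sets how well they are translated, so that their protein output can change without a change in mRNA. Heart muscle is known for a variant ribosome: its cells replace the large subunit protein encoded by Rpl3, which lies close to the centre of peptide bond formation, with the product of Rpl3l, a paralog expressed in heart and skeletal muscle. Hypertrophic growth of the heart requires more protein synthesis, to which both more ribosomes and more translation per ribosome contribute.

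The left ventricles came from adult FVB mice that were wild type (WT) or of the genotype caPI3Kalpha, which the labels call a PI3Kalpha mutant and whose name stands for a kinase alpha subunit that is always active. At 7 days before tissue collection each animal was operated on, either with a narrowing of the aorta that raises the pressure in the ventricle (transverse aortic constriction, TAC) or with the sham procedure. Poly-A selected RNA of each mouse gave 1 library, named here by group and animal number: WT sham 6, 7, 13 and 15, WT TAC 1, 17 and 19, caPI3Kalpha sham 5 and 8, and caPI3Kalpha TAC 11 and 211. The promoter or cell type that drives the active kinase is not given in the sources used here. Changes below are log2 differences from a limma fit on log2(RPKM + 0.5) of the whole table, with their standard error (SE) and a Benjamini-Hochberg p adjusted over all 8987 genes, and a gene passed where that p was under 0.05.

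Pik3ca, the gene of the altered kinase, checked the genotype labels. It stood at 5.3, 8.5, 7.7 and 7.0 RPKM in the WT sham libraries, at 5.6, 8.1 and 8.9 in those of WT TAC, at 115.4 and 195.0 in caPI3Kalpha sham and at 110.5 and 101.3 after TAC in that genotype, so that the genotypes did not overlap. Heart muscle markers were abundant in every library, with a summed level of 8 genes between 14978.5 and 19873.7 RPKM. The deposited RPKM summed to between 202916.4 and 212396.3 per library, and the read depth behind them is unknown. The libraries fell into a first set (the 4 caPI3Kalpha libraries with WT TAC 1 and WT sham 6) and a second set (the other 5 WT libraries), split by whether a library scored above or below 0 on the main axis of variation of the genes other than the 76, an axis that held 51.6% of their variance. The labels do not give these sets, and since caPI3Kalpha libraries are in the first set alone, the genotype and the set cannot be told apart for them beyond what WT sham 6 and WT TAC 1 show.

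Short stretches around the transcription start show how the genes are alike and unlike in their letters. RefSeq start windows (build GRCm38.p6, a newer build than the mm9 named in the submitters' processing notes) matched 56 of the 76 genes. Each line gives 10 bases before the start and 20 from it, 5′ to 3′ on the gene's strand, with runs of at least 6 C or T in capitals. The first pair are the starts of Rpl3l, followed by Rpl5, Rpl10 and Rpl36a as other genes without such a run. The lines with a run are those of Rpl4, the gene with the highest level, Rps9 and Rpl39, which differed between the library sets in opposite directions, Rps26, and Rps6, whose product is the S6 kinase substrate.
Rpl3l, chr17:24727816-24727845, plus strand: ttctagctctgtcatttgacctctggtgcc
Rpl3l, chr17:24732675-24732704, plus strand: caacagctacagtgccccaaatgtcctgaa
Rpl5, chr5:107900518-107900547, plus strand: cgtcgcttgcgtgctggtggtgctacatac
Rpl10, chrX:74270806-74270835, plus strand: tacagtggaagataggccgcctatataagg
Rpl36a, chrX:134585644-134585673, plus strand: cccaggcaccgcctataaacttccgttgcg
Rpl4, chr9:64173377-64173406, plus strand: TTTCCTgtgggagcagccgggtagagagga
Rps9, chr7:3704031-3704060, plus strand: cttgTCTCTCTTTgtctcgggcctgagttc
Rpl39, chrX:37085203-37085232, minus strand: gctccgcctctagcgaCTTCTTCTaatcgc
Rps26, chr10:128626487-128626516, minus strand: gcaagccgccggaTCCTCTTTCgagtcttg
Rps6, chr4:86857348-86857377, minus strand: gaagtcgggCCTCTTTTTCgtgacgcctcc
Such a run was present in 34 of the 56 genes (60.7%), in 2079 of the 6445 genes of the whole table that had a window (32.3%), and in 28.7% of all 32851 windows. Rpl3l is thus 1 of several matched genes without one, and Rpl3 had no window here. The annotated start may not be the one used in the heart. In Rpl4 the run lies wholly before that start, and in Rpl36a the letters TATAAA lie after it. A run further than 20 bases from the start would be missed, so these letters do not settle which mRNAs begin with a TOP motif. In the full window of 250 bases before and 50 from the start, read on both strands, CCGGAAG, a core bound by ETS factors, was found in 23 of the 56 genes (41.1%) against 21% of the table's genes. ATGGCGG, a core bound by YY1, was found in 10 (17.9%) against 10.6%, and GGGCGG, the GC box, in 33 (58.9%) against 71.6%. TATAAA, the TATA box, was found in 6 (10.7%) against 8.95%, and CACGTG, the E-box, in 5 (8.93%) against 12.5%. These are matches of letters and not binding sites.

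In WT sham hearts the 76 genes spanned a 52.4-fold range of RPKM, with a median of 26.7 RPKM against 6.63 for all genes. The highest was Rpl4, whose product lines the exit tunnel, at 153 ± 6.42 RPKM (SD, n = 4), and high levels were also found for Rps15 at a mean of 95.3, Rps20 at 93.5 ± 11.7 and Rpl8 at 92.4 ± 38.2. The ranges of Rps15, Rps20 and Rpl8 overlapped, so their order is not settled by 4 hearts, whereas the lowest Rpl4 library (147.1) exceeded every value of these 3 genes except Rpl8 in WT sham 6 (149.5). The lowest were Rpl30 (2.93 RPKM), Rps23 (3.03), Rpl29 (3.53), Rpl21 (4.65) and Rpl34. Of the 76, 70 stood above the median of all genes. Ribosomal protein genes have many near-identical processed copies in the mouse genome, and how the authors treated reads that match several places is not given in the sources used here, so the low levels, and the order of the genes, are uncertain.

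After TAC, WT hearts had less Rpl3l and more Rpl3 mRNA than sham hearts, and no other ribosomal protein gene passed the test in that comparison. Rpl3l stood at 82.0, 62.1, 62.5 and 67.4 RPKM in WT sham and at 50.2, 37.1 and 37.3 in WT TAC. Every TAC library was below every sham library, also within each library set. The log2 change was -0.72 (SE 0.14, limma adjusted p = 0.00638), a level 0.607 of that in sham. Within the first set it was -0.70 and within the second -0.77 (adjusted p = 0.000473).

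Rpl3 stood at 7.5, 10.6, 11.0 and 10.1 RPKM in WT sham and at 11.6, 21.4 and 21.5 in WT TAC. All TAC libraries were above all sham libraries, though WT TAC 1 exceeded the highest sham library, which is of the other set, by only a little. The log2 change was 0.82 (SE 0.22, limma adjusted p = 0.0303), or 1.76-fold, with 0.60 within the first set and 0.99 within the second (adjusted p = 0.000462). The call of Rpl3 was lost with each library centred on its median (0.63), with quantile normalization (0.67), in a fit of the WT groups alone, and without WT sham 7, WT sham 15, WT TAC 17 or WT TAC 19 (0.86, 0.84, 0.68 and 0.67). The call of Rpl3l was kept in each of these, at between -0.91 and -0.65, and was lost only within the first set, which holds 1 sham and 1 TAC library of WT.

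Rpl3l stood above Rpl3 in every library, by less in WT TAC than in WT sham. The ratio of Rpl3l to Rpl3 RPKM was 10.9, 5.86, 5.68 and 6.67 in the 4 sham hearts, against 4.33, 1.73 and 1.74 in the 3 TAC hearts. The groups did not overlap, and the mean log2 ratio went from 2.75 ± 0.42 (SD, n = 4) to 1.21 ± 0.74 (SD, n = 3), computed on RPKM + 0.5. That difference of -1.54 had a p of 0.0286 in an exact two-sided permutation test over the 35 assignments of the libraries to the groups, the smallest p this design allows, and 0.143 after Benjamini-Hochberg adjustment over the 5 paralog pairs. It was -1.30 within the first set and -1.76 within the second.

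In caPI3Kalpha hearts the differences after TAC were smaller in size for both genes. Rpl3l stood at 73.5 and 67.5 RPKM in caPI3Kalpha sham and at 56.1 and 58.5 in caPI3Kalpha TAC, with both TAC libraries below both sham libraries and all of them above the 3 WT TAC libraries. The log2 change after TAC was -0.30 (SE 0.18, limma adjusted p = 1). Rpl3 stood at 9.3 and 6.5 RPKM in caPI3Kalpha sham and at 7.9 and 8.8 in caPI3Kalpha TAC, which overlap, with a change of 0.09 (SE 0.29, limma adjusted p = 1). The ratio of the pair was 7.90 and 10.4 in sham and 7.10 and 6.65 in TAC.

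The difference between the genotypes in this response was tested as an interaction. For Rpl3l it was 0.42 (SE 0.23, limma adjusted p = 0.586) and for Rpl3 -0.73 (SE 0.37, limma adjusted p = 0.549), so neither passed. With a term for the library set in the model both passed, at 0.46 (SE 0.10, adjusted p = 0.0253) and -0.78 (SE 0.19, adjusted p = 0.0403). Within the first set alone, where 1 WT sham and 1 WT TAC library enter, they were 0.41 and -0.50 (adjusted p = 0.395 and 0.525).

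**Figure D1:**
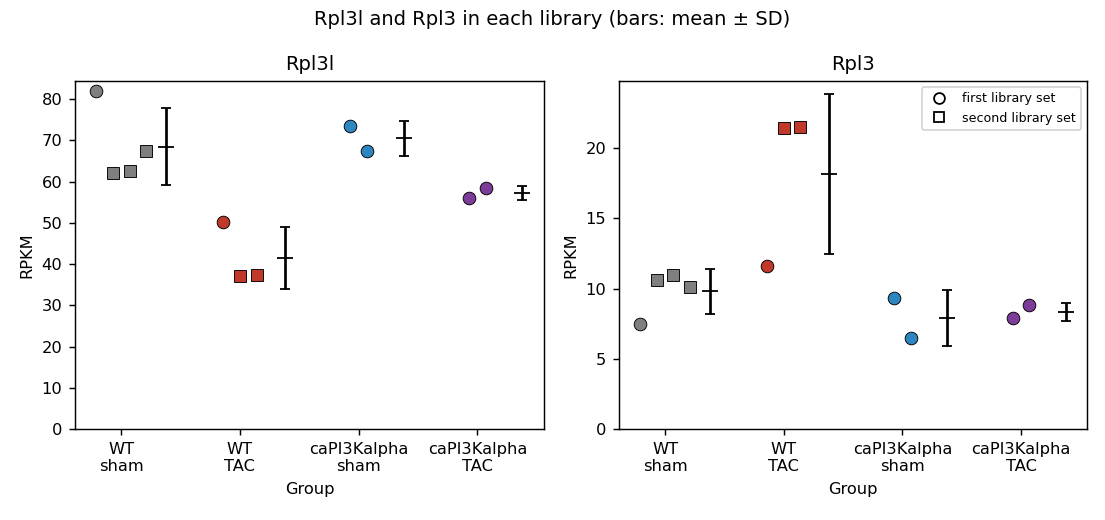
RPKM of Rpl3l (left) and Rpl3 (right) in each of the 11 libraries by group; circles are the first library set, squares the second, and bars give the mean and SD of the group. The 3 WT TAC points lie below every other group for Rpl3l (50.2, 37.1 and 37.3 RPKM) and above every other group for Rpl3 (11.6, 21.4 and 21.5 RPKM).

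Other cells and other genes moved with these values, and their part in the result was not tested. The summed level of the 8 heart muscle markers ranged over the WT sham libraries from 19072.2 to 19873.7 RPKM and over the WT TAC libraries from 14978.5 to 15941.9. For caPI3Kalpha the ranges were 16095.9 to 19147.9 (sham) and 17008.4 to 17508.0 (TAC). In WT TAC against WT sham 1 of the 8 fell and 0 rose, with a median of -0.29. Of 8 fibroblast markers 5 rose, with sums between 289.6 and 387.0 RPKM in the sham hearts and between 818.0 and 913.1 after TAC; in caPI3Kalpha TAC the sums were 384.6 and 408.4. Of 10 measured macrophage markers 9 rose, from sums of 117.3 to 137.6 RPKM to sums of 264.7 to 318.7, and the caPI3Kalpha TAC sums were 118.2 and 140.9. Of 7 endothelial markers 1 rose, with sums of 152.5 to 160.3 RPKM in WT sham and 174.6 to 186.9 after TAC. No gene of these 4 lists was listed at 0 in any library. In bulk tissue, fewer cells of a type and less RNA per cell cannot be told apart.

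Of the 76 genes, Rpl3l alone was past the threshold downward and Rpl3 alone upward, 1 each, where 2.85% and 13.6% of all genes passed. At an unadjusted p under 0.05 there were 7 of 76 (9.21%), 6 higher and 1 lower, against 31.4% of all genes. The SE of this and the other comparisons takes in the difference between the library sets. The median absolute size of that difference was 0.60 on the log2 scale in the 76 and 0.35 in all genes. Its effect on these shares was not tested. The median change of the 76 was 0.17, equal to the 0.17 of all genes, and 61 were positive and 15 negative, where 71.8% of all genes were positive. With each library centred on its median, which shifts all its genes alike, the median of the 76 and that of all genes were both -0.02. Then 36 were positive and 40 negative (47.2% of all genes positive). With quantile normalization the medians were 0.08 for the 76 and -0.03 for all genes, with 51 positive and 25 negative (45.7% of all genes positive). The direction of the group as a whole, and its place against all genes, thus depend on the scaling. The large subunit genes had a median of 0.20 and the small subunit genes of 0.11.

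Rpl4, Rps26, Rpl10 and Rpl36a came next to these by size of change or by p without passing. Rpl4 stood at 161.4, 147.1, 149.3 and 155.2 RPKM in WT sham and at 180.8, 192.2 and 188.9 in WT TAC, with no overlap and a change of 0.29 (SE 0.09, limma adjusted p = 0.0582). With quantile normalization (0.35) and with the set term (0.29, adjusted p = 0.00811) it passed, while it stood at 0.10 with centring and at 0.16 within the first set and did not. Rps26, whose product lies at the mRNA exit of the small subunit, stood at 39.2, 29.7, 23.9 and 27.9 RPKM in WT sham and at 55.9, 38.6 and 38.2 in WT TAC. WT sham 6 lay above WT TAC 17 and 19, so the groups overlapped, while within each set TAC was higher, and the change was 0.54 (SE 0.19, limma adjusted p = 0.0749). With the set term Rps26 passed (0.50, adjusted p = 0.00292).

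Rpl10, whose product is among the last to join the large subunit, stood at 40.1, 23.2, 24.0 and 28.1 RPKM in WT sham and at 49.1, 32.2 and 38.3 in WT TAC. Here too the groups overlapped through WT sham 6 and did not overlap within a set (change 0.47, SE 0.19, limma adjusted p = 0.122). Rpl36a stood at 20.9, 16.1, 15.7 and 15.1 RPKM in WT sham and at 27.0, 23.7 and 19.0 in WT TAC, with the same form of overlap (0.44, SE 0.16, limma adjusted p = 0.0834). Rpl28 had a change of 0.45, Rps20 of 0.28 and Rpl32 of 0.20, and none of them passed. With the set term Rpl10 (0.42, limma adjusted p = 0.00336), Rpl36a (0.41, 0.00845), Rpl28 (0.34, 0.0147) and Rps20 (0.26, 0.0312) passed, and Rpl32 did not (0.21, 0.0537) but passed within the second set (0.28, 0.0101). At the other end Rpl35a stood at -0.21 and Rps13 at -0.20.

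Of the 76 genes, 4 had WT TAC wholly above WT sham (Rpl4, Rpl32 and Rpl3 among them) against 18.9% of all genes, and 1, Rpl3l, wholly below against 4.65%. The count of passing genes was larger where the library sets were separated. With a term for the set 18 were higher (33.1% of all genes) and 1 lower (9.01%). Within the second set, of 3 sham and 2 TAC libraries, 22 of 76 (28.9%) were higher against 24.9% of all genes, and 1 was lower against 6.69%. Within the first set 0 passed, where 0.478% of all genes were called higher and 0.0111% lower. Without WT sham 6, 13 were higher and 1 lower (17.8% and 4.38% of all genes), and without WT TAC 1, 3 were higher and 1 lower (17.4% and 3.54%). These shares lie near those of all genes or below them, so the upward counts do not set the 76 apart.

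A description that uses each set on its own gives the genes whose change exceeded 0.25 in both, a limit chosen after the values were seen. Upward there were 6 of 76 (7.89%) against 27.6% of all genes: Rpl3, Rpl39 (0.55 and 0.52 in the first and second set), Rps26 (0.51 and 0.50), Rpl36a (0.36 and 0.43), Rpl10 (0.29 and 0.48) and Rps28 (0.29 and 0.57). Downward there was 1, Rpl3l (1.32%), against 6.79%. In 42 genes both sets were positive, in 7 both negative and in 27 of opposite sign. The first of these is 55.3% of the 76 against 57.7% of all genes, and the second 9.21% against 20.1%. Opposite signs were more common among the 76, at 27 of 76 against 1756 of all 8987 genes. Rpl34, low in RPKM, was among the 27 genes of opposite sign, at -0.55 in the first set and 0.82 in the second.

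**Figure D2:**
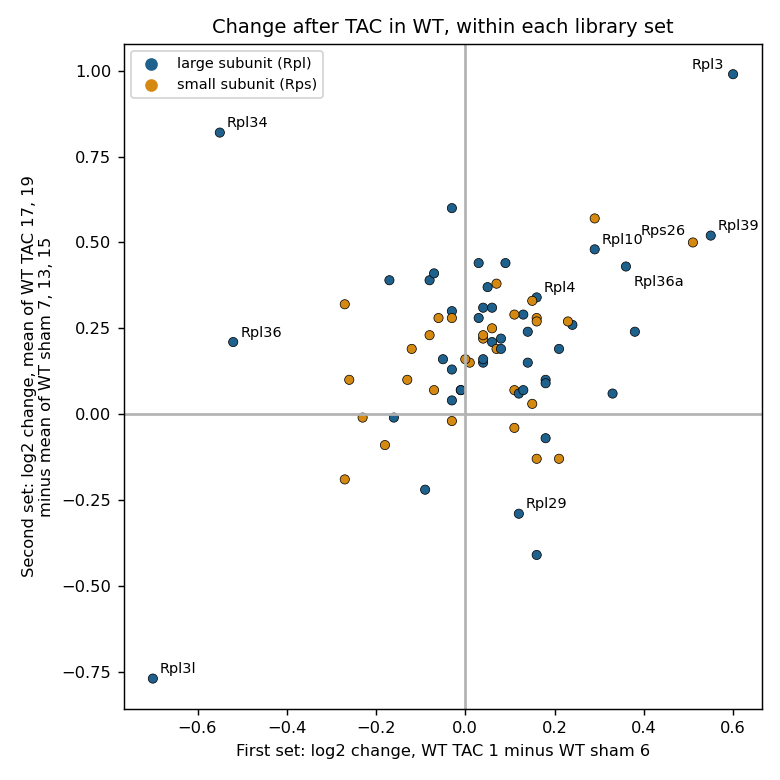
Log2 change from WT sham to WT TAC of each of the 76 genes within the first library set (horizontal, WT TAC 1 minus WT sham 6) and within the second (vertical, difference of means). Rpl3l lies alone at the lower left (-0.70 and -0.77) and Rpl3 at the upper right (0.60 and 0.99), while most genes lie near 0 horizontally and somewhat above 0 vertically.

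For the other 4 pairs of a ribosomal protein gene and its paralog the WT groups overlapped. Rps27l, a paralog of Rps27 known as a p53 target, stood at 28.7 ± 4.26 RPKM (SD, n = 4) in WT sham and 33.2 ± 4.77 (SD, n = 3) in WT TAC, and the log2 ratio of Rps27l to Rps27 differed by 0.29 (exact permutation p = 0.314, 0.619 adjusted over 5 pairs). The ratio of Rpl22l1 to Rpl22 differed by -0.16 (exact permutation p = 0.743, adjusted 0.8), of Rpl7l1 to Rpl7 by -0.08 (exact permutation p = 0.8) and of Rpl36al to Rpl36a by -0.44 (exact permutation p = 0.371, adjusted 0.619). A p above the threshold with 4 and 3 hearts does not show that these ratios are equal.

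Between the genotypes without load, the largest differences lay between the library sets rather than between all WT and all caPI3Kalpha libraries. In caPI3Kalpha sham against WT sham 0 of 76 passed in either direction (0.0111% of all genes higher and 0% lower), and 22 had an unadjusted p under 0.05, 8 higher and 14 lower (28.9% against 13.3% of all genes). The changes ran from -1.36 (Rpl39) to 1.39 (Rpl36), the widest range of the 5 comparisons apart from caPI3Kalpha TAC against WT TAC. Rpl36 stood at 38.3, 5.7, 8.8 and 9.1 RPKM in WT sham and at 31.9 and 30.6 in caPI3Kalpha sham. The WT library of the first set, WT sham 6, was above both caPI3Kalpha libraries, and the 3 WT libraries of the second set were far below them.

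Rpl39, the small protein near the mouth of the exit tunnel, showed the opposite order, at 13.1, 34.6, 44.0 and 53.1 RPKM in WT sham and 10.8 and 13.9 in caPI3Kalpha sham. Here WT sham 6 lay between the caPI3Kalpha libraries. Groups did not overlap upward for 2 genes, Rpl7a and Rpl14 (9.42% of all genes), and downward for 13 (10.1%). With a term for the library set the changes of Rpl36 and Rpl39 were -0.03 and -0.10. Without WT sham 6 the fit called 24 of the 76 higher and 13 lower in caPI3Kalpha sham (11.6% and 8.71% of all genes). The WT sham libraries are then all of the second set, so genotype and set cannot be told apart in those calls. Rps6 was lower in both caPI3Kalpha sham libraries (21.7 and 18.2 RPKM) than in all 4 WT sham libraries (22.4, 29.2, 29.0 and 27.6), by a change of -0.43 (SE 0.15, limma adjusted p = 0.326), and stood at -0.18 with the set term. Rpl3l and Rpl3 differed between the sham groups by 0.05 (SE 0.16) and -0.30 (SE 0.25), with adjusted p of 0.847 and 0.454 in limma. Both signs turned with the set term, to -0.24 for Rpl3l and 0.19 for Rpl3 (limma adjusted p = 0.999 for each), and within the first set the values were -0.22 and 0.05.

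Load in caPI3Kalpha hearts gave the narrowest range. All 4 libraries are of the first set, so the set does not enter the size of these changes. It does enter their SE and p, which come from the fit of all 11 libraries. With the set term the SE of Rpl3l was 0.08 in place of 0.18, and the gene did not pass (limma adjusted p = 0.104). The changes of the 76 ran from -0.31 (Rpl38) to 0.28 (Rpl22), with a median of 0.06 against 0.01 for all genes. In limma 0 of 76 passed (0% of all genes in either direction) and 0 of 76 had an unadjusted p under 0.05, as did 5.05% of all genes. Rpl22, which binds RNA and is not needed for translation as such, stood at 23.7 and 26.6 RPKM in sham and 29.0 and 32.1 in TAC, a change of 0.28 (SE 0.15). Groups of 2 did not overlap upward for 6 genes (Rpl22, Rpl10, Rps27a, Rpl28 and Rpl12 among them) against 22.4% of all genes, and downward for 5 (Rpl3l, Rps7, Rpl24, Rps2 and Rpl27) against 20%.

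The interaction of genotype and operation gave 0 of 76 in either direction, with 0% of all genes higher and 0.312% lower. No gene of the 76 had an unadjusted p under 0.05, against 10.3% of all genes, and the median was -0.16, the same as that of all genes. The SE of the 76, with a median of 0.34, takes in their larger difference between the library sets. Its effect on this share was not tested. Rps26 followed Rpl3 at the low end with -0.57 (SE 0.31, limma adjusted p = 0.591). With the set term 1 of 76 was higher (Rpl3l; 0.835% of all genes) and 1 lower (Rpl3; 5.92%).

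Under load, caPI3Kalpha against WT, Rpl3 was the only gene of the 76 that passed. It was lower in caPI3Kalpha TAC by a log2 change of -1.03 (SE 0.27, limma adjusted p = 0.047), where 5.78% of all genes were called lower, and it was -0.59 with the set term (adjusted p = 0.0481; 1.26% of all genes higher and 7.74% lower) and -0.45 within the first set (adjusted p = 0.322). The call was kept without WT sham 6 or WT TAC 1 and lost without any 1 of the other 9 libraries, as well as with centring (-0.86) and quantile normalization (-0.89). Rpl3l stood at 0.47 (SE 0.17, limma adjusted p = 0.09), at 0.21 with the set term (limma adjusted p = 0.135) and at 0.19 within the first set. It passed without WT sham 6 (0.47) or WT TAC 1 (0.62). Without WT sham 6, 2 of 76 were called higher and 12 lower (3.78% and 17.5% of all genes), and without WT TAC 1, 3 and 19 (8.29% and 28.1%). Without WT TAC 1 the WT TAC libraries are all of the second set, so genotype and set cannot be told apart in those calls. Upward 0 of 76 passed (0.746% of all genes), and 16 had an unadjusted p under 0.05, 1 higher and 15 lower (21.1% against 32.8% of all genes). Groups did not overlap upward for 2 genes, Rpl3l and Rpl36 (11.5% of all genes), and downward for 24 (36.2%), among them Rpl4, Rpl32, Rpl7, Rps4x and Rpl39. This comparison shares its TAC libraries with the others, so its values are not separate evidence.

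**Figure D3:**
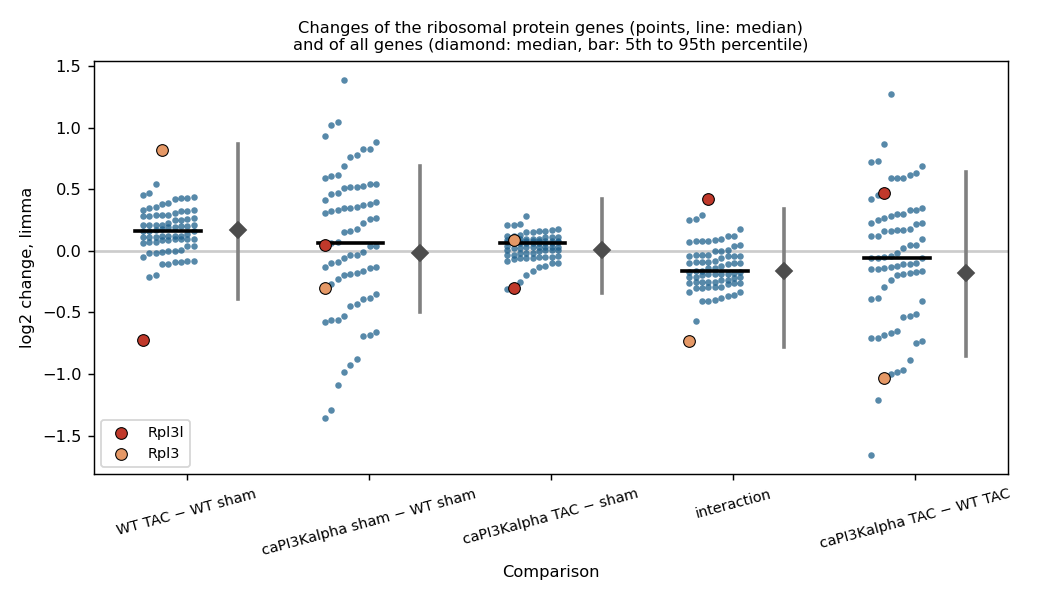
Log2 changes of the 76 genes (blue points, black line at their median) in the 5 comparisons, beside all genes (diamond at the median, bar from the 5th to the 95th percentile), with Rpl3l and Rpl3 marked. The points spread widest where caPI3Kalpha libraries are set against WT libraries (from -1.36 to 1.39 in sham, and from -1.66 to 1.27 in TAC) and least in caPI3Kalpha TAC against sham (-0.31 to 0.28).

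The widest variation among the 76 genes followed the library set and ran both ways. The log2 difference between the sets was taken from a fit with terms for the group and the set. It rests on the WT groups, the only ones with libraries in both sets, and can differ from the gap between set means. By that measure 14 of 76 genes (18.4%) differed over 2-fold against 3.94% of all genes, 10 lower and 4 higher in the second set. The median absolute difference was 0.60 on the log2 scale against 0.35. In 24 genes every library of the second set was below every library of the first (14.4% of all genes), and in 16 every one was above (18.2%). As the sets come from the same libraries' values, though from other genes, these are descriptions.

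Rpl36 differed most downward, with a mean of 31.9 RPKM in the first set and 8.34 in the second. Rps9, near the mRNA entry of the small subunit, stood between 143.3 and 160.9 RPKM in all 6 libraries of the first set and between 61.9 and 78.1 in all 5 of the second. Rps16, Rps2 and Rpl28 differed by -1.48, -1.38 and -1.37 on the log2 scale. Fau, whose product is another small subunit protein and which the symbol rule does not take, differed by -1.80.

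In the other direction, Rps27a, which encodes ubiquitin fused to a small subunit protein, had a mean of 8.23 RPKM in the first set and 28.7 in the second. Rpl39 went from 13.9 to 51.2 RPKM, Rps4x from 42.5 to 98.6, and Rpl9 differed by 1.29 on the log2 scale. The rank of a gene among the 76 depended on the set for this reason: Rps9 was 2nd in the first set and 11th in the second, Rpl7 24th and 3rd, and Rps4x 28th and 4th. Genes such as Rpl4, Rpl5, Rps7, Rpl11 and Rpl21 had set differences between -0.04 and 0.02. Rpl5 and Rpl11, whose products with the small ribosomal RNA of the large subunit form a particle that restrains Mdm2, had changes of 0.07 and -0.05 in WT TAC against WT sham.

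**Figure D4:**
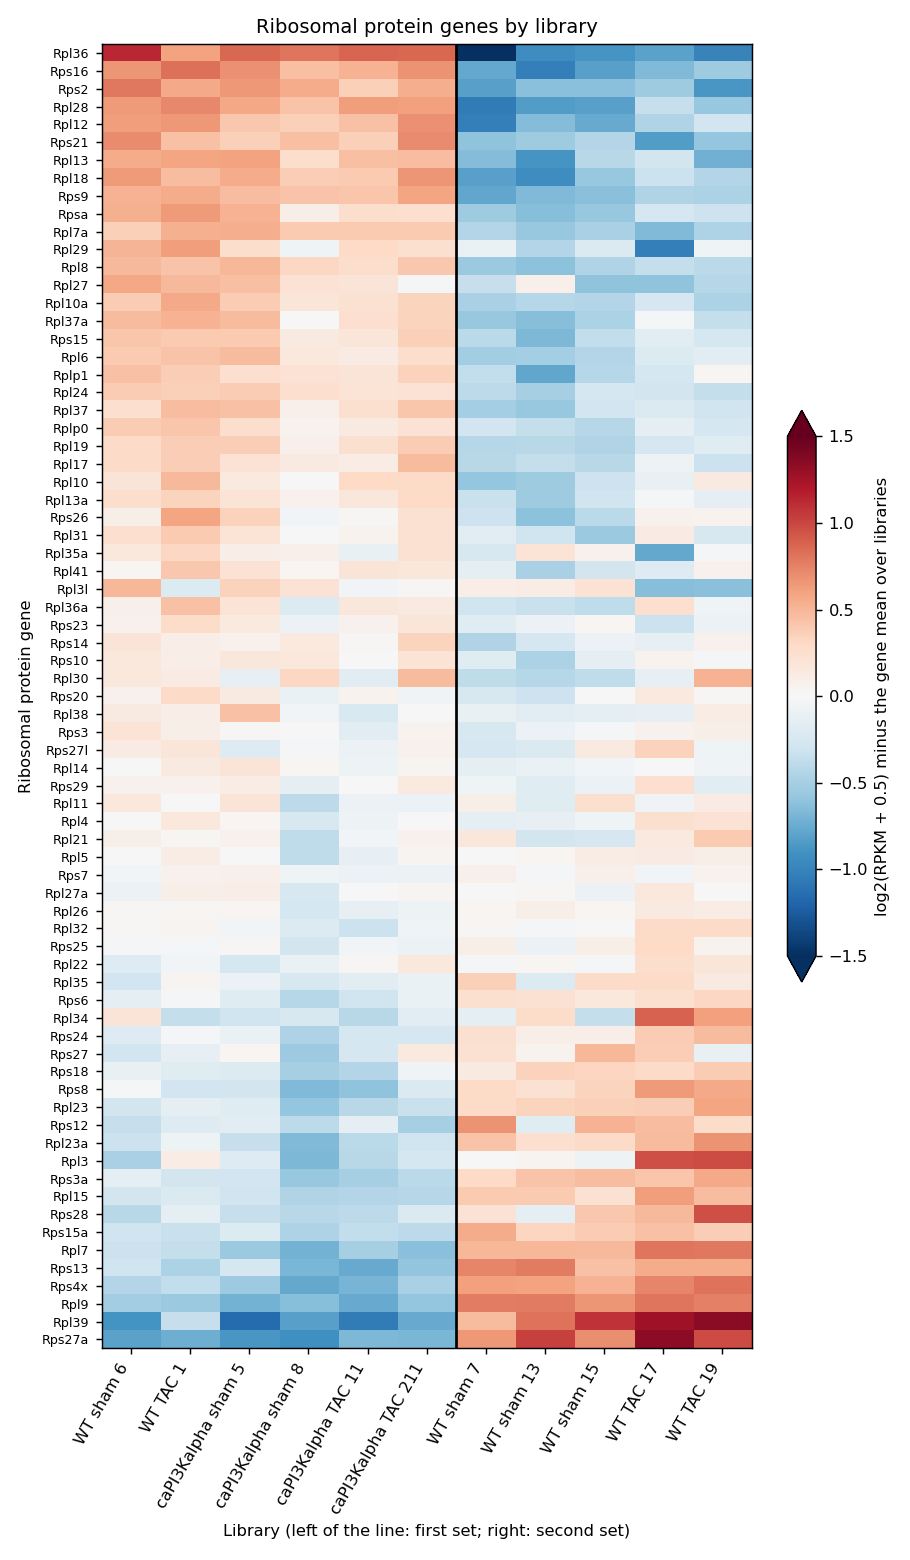
Heat map of log2(RPKM + 0.5) of 73 of the 76 genes (vertical) in the 11 libraries (horizontal), minus each gene's mean over libraries, with genes ordered by the difference between the library sets and a black line between the sets. The top genes, such as Rpl36 and Rps16, are high (red) in the first set and the bottom genes, such as Rps27a and Rpl39, are high in the second, while Rpl3l is lowest in WT TAC 17 and 19.

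Summed over the 76 genes, the RPKM were 3386.2, 2644.8, 2587.3 and 2751.1 in the WT sham libraries and 3477.4, 3089.7 and 3085.7 in those of WT TAC. In caPI3Kalpha they were 3307.4 and 2917.7 after sham and 3029.4 and 3293.6 after TAC. Within each set WT TAC lay above WT sham, while across sets WT sham 6 exceeded WT TAC 17 and 19. The sum made up between 1.27% and 1.69% of all listed RPKM in the 11 libraries. The ratio of large to small subunit sums was between 1.19 and 1.25 in the 6 libraries of the first set and between 1.13 and 1.14 in the 5 of the second, without overlap. The acidic stalk gene Rplp0, often used as a reference gene, stood at 125.8 RPKM in WT sham 6 and 129.5 in WT TAC 1, against 72.0 to 79.1 in the other WT sham libraries and 88.0 and 81.4 in the other WT TAC libraries. Rpsa, which encodes a small subunit protein also known as the laminin receptor, followed the set in the same direction (44.7 and 48.4 RPKM in the WT libraries of the first set, 19.6 to 25.7 in those of the second).

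**Figure D5:**
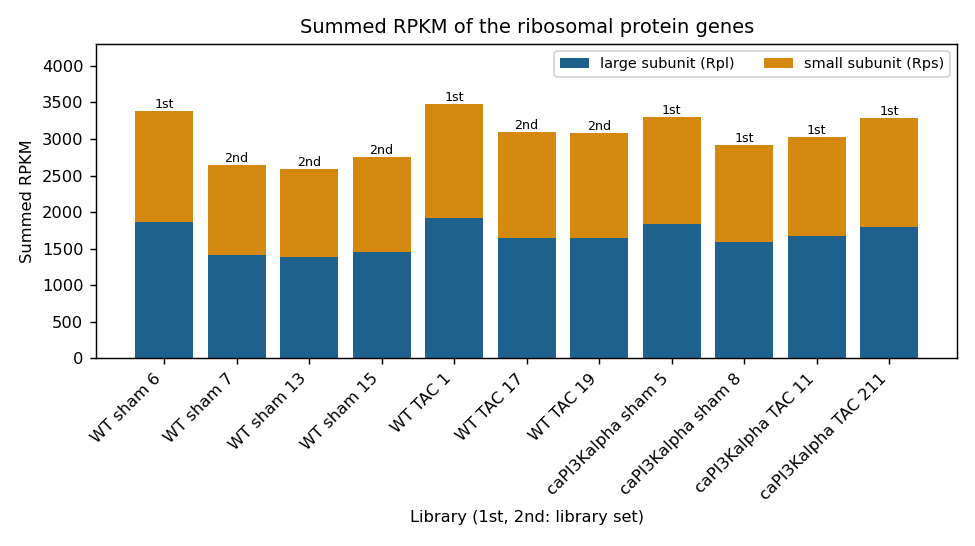
Summed RPKM of the 76 ribosomal protein genes in each library, split into large (blue) and small subunit (orange), with the library set above each bar. The libraries of the first set reach 2917.7 to 3477.4 RPKM and those of the second 2587.3 to 3089.7.

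Genes that build or regulate ribosomes were read from lists written for the known pathway. Of 52 measured nucleolar and assembly factors (58 listed), 7 rose and 0 fell in WT TAC, with a median of 0.27 against 0.17 for all genes, of which 13.6% were called higher and 2.85% lower. With the set term 21 of the 52 were higher and 0 lower, against 33.1% and 9.01% of all genes. Tsr1, which matures the small subunit, stood at 7.8, 7.2, 6.5 and 7.7 RPKM in WT sham and at 10.3, 10.8 and 10.4 in WT TAC, without overlap (0.50, SE 0.10, limma adjusted p = 0.00756). Pes1 and Ddx21, both needed to process ribosomal RNA, and Nop56, of the particles that methylate it, rose by 0.53, 0.45 and 0.51. In caPI3Kalpha TAC against caPI3Kalpha sham 0 of the 52 passed, with a median of 0.06, and the interaction passed for 0.

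Of 18 genes listed as having mRNAs of the TOP kind, mostly translation factors and their partners, 5 rose and 0 fell in WT TAC. These 5 include Vim, which is not a translation factor. The shares of all genes were the same 13.6% and 2.85%, and the median of the 18 was 0.18 against 0.17. With the set term 8 of the 18 were higher and 0 lower, against 33.1% and 9.01% of all genes. Eef1a1, the elongation factor that brings transfer RNA, rose by 0.79 (limma adjusted p = 0.00343), and Pabpc1, which binds the poly-A tail, by 0.85 (adjusted p = 0.000774). Eif3h, an initiation factor subunit, rose by 0.47, and Vim, an intermediate filament gene of fibroblasts and other non-muscle cells, by 1.48. In caPI3Kalpha TAC against its sham 0 of the 18 passed. Of 16 measured genes listed as regulators of ribosome production, mostly of the mTOR and Myc pathways (19 listed), 1 rose, against 13.6% of all genes. It was Rps6ka3 (0.74, limma adjusted p = 0.00791), a ribosomal S6 kinase gene distinct from the S6 kinase genes Rps6kb1 and Rps6kb2 of the same list. With the set term 5 of the 16 were higher and 0 lower, against 33.1% and 9.01% of all genes.

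The table also holds 76 genes of the mitochondrial ribosome, which translates the few proteins encoded in mitochondrial DNA. Their median in WT TAC against WT sham was -0.19 with 0 higher and 1 lower, Mrps35 (-0.51, limma adjusted p = 0.00524), and with the set term 1 was higher and 27 lower (33.1% and 9.01% of all genes). For caPI3Kalpha TAC against sham their median was -0.06, with 0 called. The difference between the cytosolic and the mitochondrial genes was not tested. Among 6 further cytosolic ribosomal genes and paralogs outside the symbol rule (9 listed; Fau, Gnb2l1, Rpl22l1, Rpl7l1 and Rpl36al are among those measured), 0 passed in any of the 5 comparisons. With the set term 1 of the 6, Gnb2l1, was higher in WT TAC against WT sham (0.26, limma adjusted p = 0.0395), where 33.1% of all genes were called higher.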

How the data were processed

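Single-end reads of poly-A selected left ventricular RNA had been turned by the authors into RPKM per gene, deposited in 1 table of 9251 lines; the submitters' processing notes list mm9, Partek 6.5, CASAVA 1.6 and Bowtie, without a role for each. After 261 blank lines, 1 error line and 2 repeats, 8987 genes in 11 libraries were used. For WT sham 15 the title, which matches the column, was used over the source name. The labels' protocols describe libraries from individual mice. The p-values of the main fit measure the spread between libraries within a group. In the WT groups, which hold libraries of both sets, that spread includes the difference between the sets as well as that between mice.

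Values were taken as log2(RPKM + 0.5) and fitted with limma 3.58.1 (R 4.3.3; lmFit, eBayes with trend, not robust) in 1 model of 4 groups, two-sided, with Benjamini-Hochberg adjustment over all 8987 genes at 0.05. The fit was tested on simulated data with independent noise and no library sets, so that test does not cover the effect of the sets on the p-values. Paralog ratios were compared by exact permutation. The members and lists were chosen with earlier results of these data known. Named genes were those past the threshold, the 3 highest and 3 lowest changes of a comparison, the paralog pairs, a few genes of known role, the 5 highest and lowest by level, those most different between library sets, and up to 4 of each other list by smallest p; Rps28, Rpl32, Rps7 and the other genes outside these were named after their values were seen. Alternatives were pseudocounts of 0.1 and 1, centring on library medians, robust fitting, no filter, quantile normalization, the compared groups alone, a term for the library set, each set alone (in the first set a lone WT library is assumed to vary like the caPI3Kalpha groups), and leaving out each library. MicroRNA counts were not used here. Results of a few genes are not reported here, though counts over the 76 include them.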

Additional observations from a re-analysis of the deposited data

Results flagged for a closer look

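Among the 4 WT sham libraries, the only group large enough to be examined this way, 25 of the 76 ribosomal protein genes had 1 library far from the other 3 by Dixon's criterion. The value in brackets is the gap from that library to the nearest of the others, as a share of the range of all 4. By chance about 1 in 20 groups is marked in this way, and genes of 1 library are not independent of each other. In 24 of the 25 the far library was WT sham 6, the only WT sham library of the first set, and in the remaining 1, Rpl32, it was WT sham 13 on the low side (0.842).

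WT sham 6 was low for 4 genes: Rpl7 (0.978), Rpl23 (0.880), Rpl9 (0.874) and Rps4x (0.870). It was high for 20 genes, of which 19 are named. Of the large subunit these were Rpl19 (0.963), Rpl10a (0.946), Rpl17 (0.939), Rpl6 (0.937), Rpl30 (0.933), Rpl28 (0.921), Rpl37a (0.899), Rpl36 (0.896), Rpl8 (0.894), Rpl7a (0.892), Rplp0 (0.868), Rpl12 (0.861), Rpl18 (0.854) and Rpl38 (0.833). Of the small subunit these were Rpsa (0.936), Rps2 (0.934), Rps21 (0.921), Rps9 (0.920) and Rps16 (0.911). Neither Rpl3l nor Rpl3 was among the 25, though both differed between the sets. WT sham 6 had the highest Rpl3l (82.0 RPKM) and the lowest Rpl3 (7.5 RPKM) of the 4 libraries. In the fit with terms for the group and the set, the second set differed from the first by -0.39 for Rpl3l and 0.65 for Rpl3 on the log2 scale. These are the directions of their changes after TAC in WT.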

How the results depend on the processing

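The count of ribosomal protein genes higher in WT TAC, 1, was 0 with centring on library medians, 0 in a fit of the compared groups alone, 18 with a term for the library set, 0 within the first set, 22 within the second, and 0 to 13 with 1 library left out (13 without WT sham 6, 3 without WT TAC 1). The count lower, 1, was 0 within the first set. In caPI3Kalpha sham against WT sham, leaving out 1 library gave 0 to 24 higher and 0 to 13 lower, the upper values without WT sham 6. The interaction gave 1 higher and 1 lower with the set term. In caPI3Kalpha TAC against WT TAC the count lower, 1, was 0 with quantile normalization, with centring, with the compared groups alone and within the first set, and 0 to 19 with 1 library left out (12 without WT sham 6, 19 without WT TAC 1); the count higher was 0 to 3. Within the first set the paralog log2 ratio difference was -0.10 for Rps27l over Rps27 and -0.74 for Rpl22l1 over Rpl22. Other pseudocounts, no filter and robust fitting left each of these counts as it was. The cause of these shifts was not tested, apart from the fewer libraries that fits within a set or without a library hold. Without WT sham 6, caPI3Kalpha sham is set against WT sham libraries of the second set alone. The same holds for caPI3Kalpha TAC against WT TAC without WT TAC 1. In those fits genotype and set cannot be told apart.

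No paired analysis was possible because the compared groups of mRNA libraries share fewer than 2 animal numbers. The read depth is unknown, so counting error cannot be given, and groups of 2 to 4 hearts limit the precision. A value of about 3 RPKM printed to 1 decimal is coarse, which touches Rpl30, Rps23 and Rpl29 most.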

Other observations

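The ratio of Rpl22l1 to Rpl22 differed by -0.75 on the log2 scale between caPI3Kalpha TAC and caPI3Kalpha sham, groups of 2 hearts for which no test was run. Red cell genes varied widely between libraries, with a summed level of 4 globin genes between 12.1 and 761.4 RPKM, and markers of the atrium were low, at 0.4 to 54.9 RPKM for 3 genes, of which Myl7 and Sln are listed at 0 in some libraries.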
